A study of Mus musculus with 2 samples.

Results

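The genes described here encode the proteasome, the particle that degrades ubiquitin-tagged proteins, together with its activators and assembly factors. They were taken from the authors' deposited table by symbol, as every symbol that starts with Psma, Psmb, Psmc, Psmd or Psme followed by a digit. This gave 46 of the 17219 genes listed. Of these, 43 encode subunits, activators or base chaperones, and the other 3 (Psmc3ip, Psme2b and Psme3ip1) only share the prefix and are treated apart. The 43 members comprise 5 inducible genes (Psmb8, Psmb9, Psmb10, Psme1 and Psme2) and 38 others.

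The proteasome core is a barrel of stacked rings, with outer rings of alpha subunits (Psma genes) and inner rings of beta subunits (Psmb genes), of which Psmb5, Psmb6 and Psmb7 carry the proteolytic sites. Interferon-gamma induces Psmb8, Psmb9 and Psmb10, which take the places of Psmb5, Psmb6 and Psmb7 in newly made particles called immunoproteasomes and favour the peptides that class I histocompatibility molecules present. The 19S cap that feeds the barrel has a base with a ring of ATPases (Psmc genes) and a lid (most Psmd genes), whereas the PA28 cap is built from the interferon-inducible Psme1 and Psme2.

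The study cultured crypts of mouse intestine as organoids and sequenced RNA on day 6. The genotype called WT carried floxed Fabp4 alleles (FABP4fl/fl), and the genotype called F4KO carried them together with villin-Cre, a recombinase driven by a promoter active in intestinal epithelium. The titles and design call F4KO a knockout, whereas its genotype label reads FABP4 knockdown. Each genotype had 1 organoid library, from animals whose age and sex the labels do not give. The deposited table also holds a comparison of a WT library and an F4KO library headed Epi, which the labels used here do not describe. It is kept under that header, with the tissue, age and preparation of those libraries unknown.

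With 1 library per genotype, no difference given here was tested against the spread between replicates. The deposited false discovery rate (FDR) compares a pair of libraries and covers counting error only, so "higher" and "lower" below mean an F4KO library against its WT library at a deposited FDR of 0.001 or less. Read numbers per library were recovered from the deposited p-values for 39 of 43 members in the organoids and 40 of 42 in the Epi libraries. Total depth is unknown, but the ratio of library totals could be fitted, at 0.992 for organoid F4KO over WT and 0.813 for Epi. Ratios of reads below are scaled by these totals and carry an exact Clopper-Pearson 95% interval for counting error.

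The libraries differed in more than genotype. Fabp4 itself had 1 read in organoid WT and 0 in organoid F4KO, and 1 and 4 in the Epi libraries, too few to check the deletion. The Y-linked gene Ddx3y was higher by 8.24 on the log2 scale in organoid F4KO and by 0.57 in Epi F4KO in the authors' deposited table. All 10 epithelial markers had a fold change in both comparisons, and those with recovered reads summed to 48353 reads in organoid WT and 45986 in organoid F4KO over 7 genes, and to 23023 and 19179 in Epi WT and F4KO over 4 genes, unscaled. Of the 10, 3 were higher and 1 lower in organoid F4KO, and 4 were higher and 6 lower in Epi F4KO, where they moved far apart, from -0.79 for Krt20 to 1.08 for Krt19. Immune markers were nearly absent from the organoids, where 16 of 24 had a fold change and summed to 97 and 74 reads in WT and F4KO, with 5 of them at 0 in a library and no value for Ptprc, which encodes the pan-leukocyte antigen CD45. In the Epi libraries 24 of 24 had a fold change, and the 21 with recovered reads summed to 7145 and 6082 reads, led by Gzma with 2561 and 2284. Fibroblast and smooth muscle markers summed to 129 and 197 reads in organoid WT and F4KO over 4 genes, of which Vim gave 128 and 194. In Epi WT and F4KO they summed to 229 and 375 reads over 8 genes, of which Vim gave 199 and 163. Of the 10 markers, 5 were higher and 0 lower in Epi F4KO, beside 30.6% and 7.92% over all genes. Their median log2 fold change there was 2.71, and Acta2, the smooth muscle actin, had 3 and 61 reads. The part of these differences in the results below was not tested. In bulk RNA, fewer cells of a type and less RNA per cell cannot be told apart.

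The organoid libraries differed little across the proteasome genes, whereas in the Epi libraries 31 of 42 were higher in F4KO. In the organoids 2 of 43 members were higher (Psmd3 and Psme3) and 4 were lower (Psma1, Psma2, Psma6 and Psmc6), beside 3.09% higher and 4.7% lower over all genes with a fold change. The members' median log2 fold change was -0.05, and that of all genes was 0, with quartiles of -0.24 and 0.15. Beside these 31 members 0 were lower in the Epi libraries, set against 30.6% higher and 7.92% lower over all genes. The count of lower members was also 0 at an unadjusted deposited p-value under 0.05. The members' median log2 fold change there was 0.31, and 40 of 42 lay above 0, as did 71.7% of all genes and 63.3% of the well expressed genes described next.

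The Epi comparison as a whole was shifted towards F4KO, and the shift depended on expression level. The median over all genes was 0.38, above that of the members. Among well expressed genes, whose deposited ratio could only be written with whole numbers that add to at least 2000, it was 0.13, and 42.3% were higher and 23.1% lower. Of the members, 33 met that condition in the Epi libraries, and 28 of them were higher and 0 lower, with a median of 0.32. In the organoids the same condition gave 9.49% higher and 10.1% lower over all genes, and 2 higher and 4 lower among 33 members. The proteasome genes thus lay below the middle of all genes but above the middle of well expressed genes in the Epi libraries. All 42 members with a value in both comparisons had the larger log2 fold change in the Epi libraries, as did 73.1% of all genes with both values and 66.9% of those well expressed in both. The sign differed for 24 of the 42 (57.1%), against 52.0% of all genes, a share near the background.

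**Figure D1:**
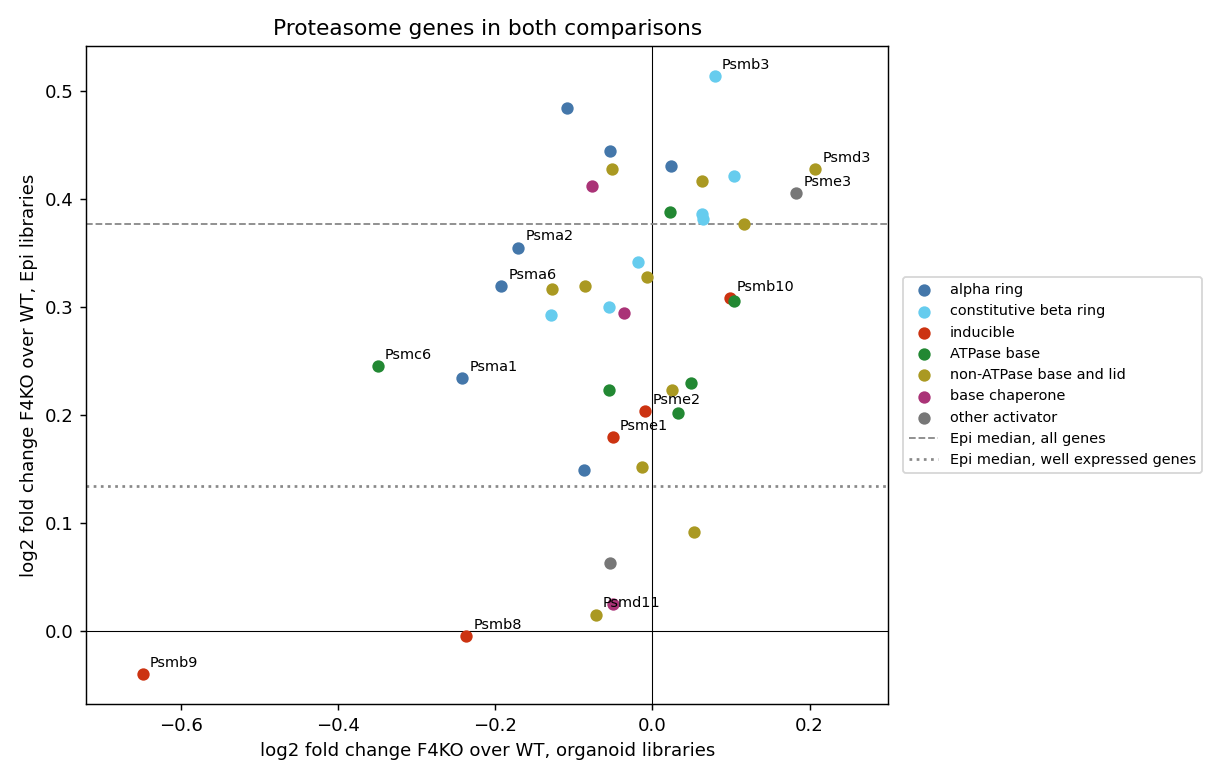
Deposited log2 fold change (F4KO over WT) of each proteasome gene in the organoid libraries (horizontal) and the Epi libraries (vertical), coloured by role, with the Epi medians of all genes (dashed, 0.38) and of well expressed genes (dotted, 0.13). Most genes sit near 0 for the organoids and between 0.15 and 0.51 for Epi. Psmb8 and Psmb9 sit near 0 for Epi, as do Psmd10 (0.02), Psmd11 (0.02) and Psme4 (0.06). Psma8 and Psmb11, with few reads, are left out.

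The alpha ring, which forms the gate of the barrel, held 3 of the 4 genes that were lower in the organoids. Psma1 had 3529 reads in organoid WT and 2961 in organoid F4KO, a ratio of 0.846 (0.805 to 0.888; log2 fold change -0.24, deposited FDR 6.82e-10). Psma6 had 3194 and 2773 reads (ratio 0.875, 0.831 to 0.921), and Psma2 had 3401 and 2998 (0.889, 0.846 to 0.934). The F4KO library was the lower one for these 3 genes. The other 4 alpha genes did not pass, with log2 fold changes from -0.11 for Psma3 to 0.02 for Psma7, so that 6 of the 7 lay below 0. In the organoids 45.8% of all genes with a fold change and 55.6% of well expressed genes lay above 0. In the Epi libraries the order was turned round, and 6 of 7 alpha genes were higher in F4KO. Psma1 had 1671 reads in Epi WT and 1598 in Epi F4KO, which after scaling is a ratio of 1.18 (1.10 to 1.26). Psma2 had 1383 and 1438 reads (1.28, 1.19 to 1.38), and Psma6 had 1549 and 1571 (1.25, 1.16 to 1.34). Psma3 had the highest value of the ring, with 1239 and 1443 reads and a log2 fold change of 0.48. Psma4 had the lowest, at 0.15, and missed the limit with an FDR of 0.00107.

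None of the 7 genes of the constitutive beta ring passed in the organoids, where log2 fold changes ran from -0.13 for Psmb7 to 0.10 for Psmb5, whereas all 7 were higher in the Epi F4KO library, by 0.29 to 0.51. Psmb5, the chymotrypsin-like subunit, had 2197 reads in organoid WT and 2342 in organoid F4KO, and 838 and 912 in the Epi libraries (ratio 1.34, 1.22 to 1.47). Psmb6, the caspase-like subunit, had 3608 and 3725 in the organoids and 1801 and 1921 in Epi (1.31, 1.23 to 1.40). Psmb7, the trypsin-like subunit, had 3848 and 3511 in the organoids, where its FDR of 0.0035 missed the limit, and 1263 and 1272 in Epi (1.24, 1.15 to 1.34). Psmb3, a structural beta subunit, had the largest Epi change of all members, with 1511 reads in WT and 1754 in F4KO. Its log2 fold change of 0.51 made it the only member past both an FDR of 0.001 and a size of 0.5 in either comparison, a rule that 22.3% of all genes passed upwards and 3.25% downwards in Epi, and 0.385% and 1.36% in the organoids.

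**Figure D2:**
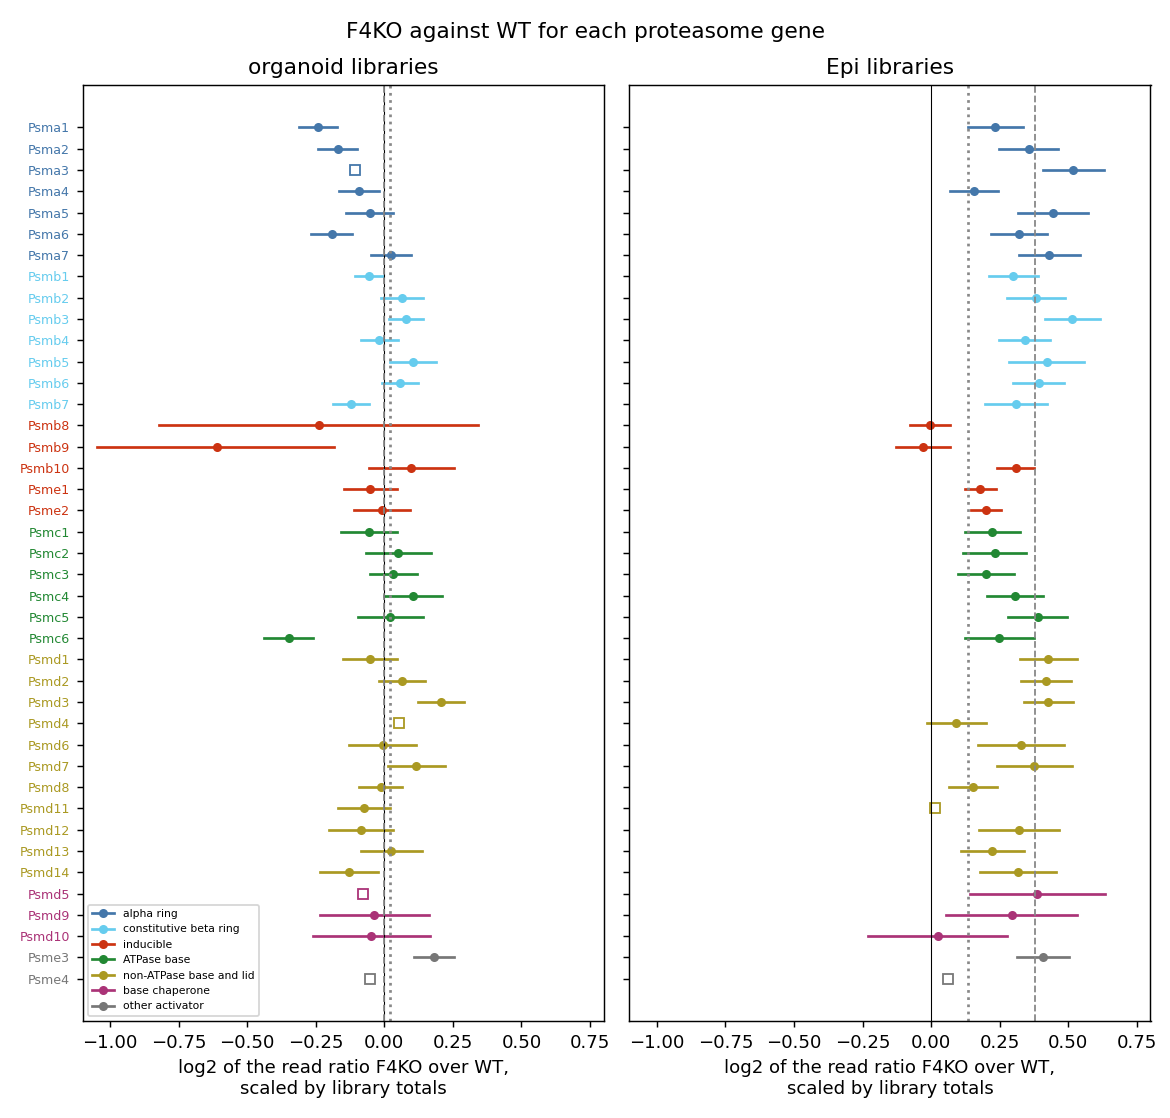
Log2 of the F4KO over WT read ratio, scaled by library totals, for each proteasome gene in the organoid (left) and Epi (right) libraries; points are recovered ratios, bars their exact 95% counting intervals, open squares deposited log2 fold changes where no reads were recovered, and the dashed and dotted lines the medians of all and of well expressed genes. In the Epi panel all constitutive beta genes lie right of 0, while the intervals of Psmb8, Psmb9, Psmd4 and Psmd10 cover 0.

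The inducible genes did not move as 1 block in the Epi libraries. Psmb8 and Psmb9 were near the same level in both genotypes, whereas Psmb10, Psme1 and Psme2 were higher in F4KO. Psmb8 had 3345 reads in Epi WT and 2710 in Epi F4KO, which after scaling is a ratio of 0.997 (0.947 to 1.05, FDR 0.919). Psmb9 had 1843 and 1468 reads, a ratio of 0.980 (0.914 to 1.05, FDR 0.658). These were the only members with an Epi log2 fold change below 0, at -0.005 and -0.04. Psmb10 had 3560 and 3583 reads (ratio 1.24, 1.18 to 1.30, FDR 1.76e-18), within the range of the constitutive subunits. The PA28 genes were between these, Psme1 with 5525 and 5087 reads (1.13, 1.09 to 1.18) and Psme2 with 5509 and 5142 (1.15, 1.11 to 1.19). The median of the 5 genes was 0.18 and that of the other members 0.32, a difference of -0.14 on the log2 scale. With 5 genes and 1 library per genotype this difference has no test.

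In the organoids 0 of the 5 inducible genes passed, and the number of reads limits what can be said of the first pair. Psmb8 had 57 reads in organoid WT and 48 in organoid F4KO (ratio 0.849, 0.566 to 1.27). Psmb9 had 117 and 76 (0.655, 0.484 to 0.881), and its log2 fold change of -0.65 had an FDR of 0.0254. It was the lowest value of any member apart from Psma8 and Psmb11, which had under 20 reads in all. Psmb10 had 660 and 701 reads (1.07, 0.961 to 1.19). Psme1 had 1758 and 1684 (0.966, 0.903 to 1.03) and Psme2 had 1575 and 1552 (0.993, 0.925 to 1.07). The median of the 5 was -0.05, within 0.01 of the median of the other members.

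The balance of each inducible subunit with the constitutive subunit it replaces differed widely between the organoid and the Epi libraries. Because it is taken within a library, this balance does not depend on depth. In the organoids Psmb8 gave 2.53% of the reads of the pair with Psmb5 in WT (1.92 to 3.26, exact interval) and 2.01% in F4KO (1.48 to 2.65). In the Epi libraries it gave 80.0% in WT (78.7 to 81.2) and 74.8% in F4KO (73.4 to 76.2). Psmb8 was thus the minor transcript of its pair in the organoids and the major one in the Epi libraries, in both genotypes. Per kilobase of transcript, the level of Psmb8 was 0.0143 times that of Psmb5 in organoid WT and 0.0113 in organoid F4KO, but 2.20 and 1.64 times in the Epi libraries.

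For Psmb9 and Psmb6 the share was 3.14% in organoid WT (2.60 to 3.75) and 2.0% in organoid F4KO (1.58 to 2.50). In Epi WT it was 50.6% (48.9 to 52.2) and in Epi F4KO 43.3% (41.6 to 45.0). Per kilobase, however, the level of Psmb9 was 0.604 times that of Psmb6 in Epi WT and 0.451 times in Epi F4KO, so that Psmb6 was the major transcript of the pair in both. Psmb9 had a lower share in the F4KO library of both the organoid and the Epi pair, and Psmb8 in that of the Epi pair, with counting intervals that do not overlap. For Psmb10 and Psmb7 the share was 14.6% in organoid WT (13.6 to 15.7) and 16.6% in organoid F4KO (15.5 to 17.8), whereas in the Epi libraries it was 73.8% in both (72.5 to 75.0 in each), and Psmb10 had 2.49 times the per-kilobase level of Psmb7 in either. Psmb10 thus kept its balance with its partner between the Epi genotypes, while Psmb8 and Psmb9 did not. After scaling, Psmb8 and Psmb9 were near level in Epi (ratios 0.997 and 0.980), while their partners Psmb5 and Psmb6 were higher in F4KO (1.34 and 1.31). Psmb10 and Psmb7 were both higher, at 1.24 each. The intervals cover counting error in these libraries and no difference between animals. The T cell and other immune markers named above were also high in the Epi libraries and near 0 in the organoids; their part in these shares was not tested.

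**Figure D3:**
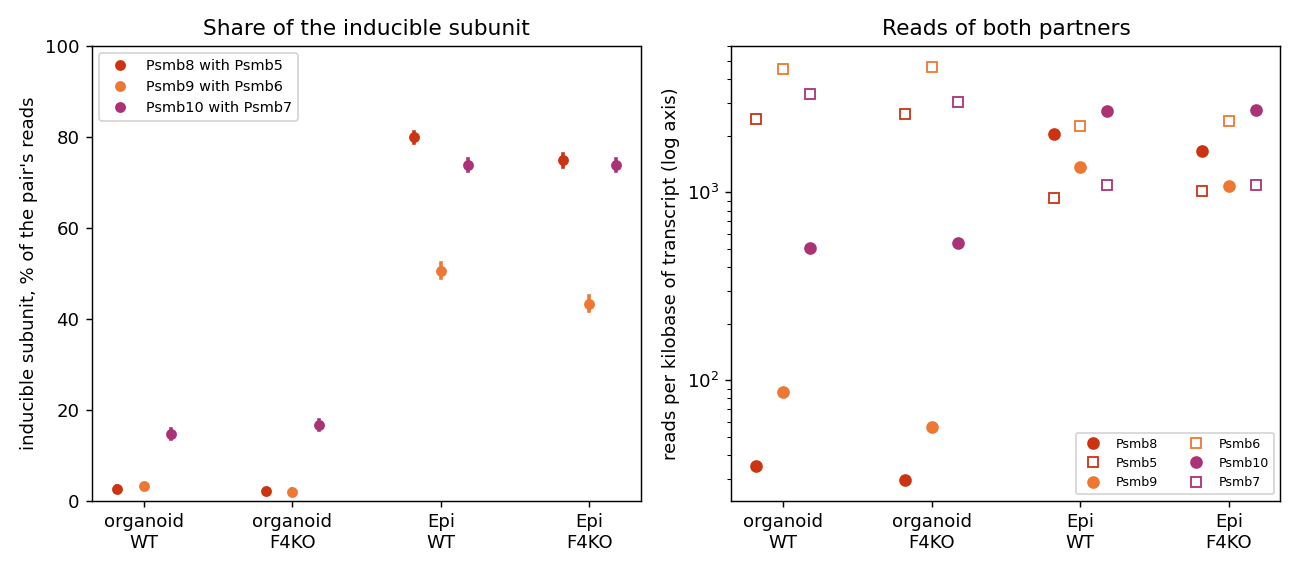
Left, the inducible subunit's share of the reads of its pair in each of the 4 libraries, with exact 95% counting intervals; right, the reads per kilobase of both partners (filled circles inducible, open squares constitutive, log axis), to be compared within a library only. The shares lie at 2.0% to 16.6% in the organoid libraries and at 43.3% to 80.0% in the Epi libraries.

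Sequences at the starts of the pairs that shifted are shown because the regulation of these genes is known to differ. Psmb8 and Psmb9 respond to interferon-gamma, in part through IRF1, and constitutive subunit genes respond to proteasome inhibition through NFE2L1, which binds antioxidant response elements. The windows below hold the 150 bases before the start that the RefSeq promoter table gives, 5′ to 3′ on the gene's strand, on GRCm38.p6. For Psmb6 that start lies within the annotated gene, so that the last 33 bases of its window are inside the gene, whereas the other windows end at the gene's edge. They were searched on both strands for the IRF-type motif GAAANNGAA and the element core TGACNNNGC, which do not overlap in these windows, and matches are in capitals. The windows are chr17:34198045-34198194 (+) for Psmb8, chr14:54617996-54618145 (-) for Psmb5, chr17:34187331-34187480 (-) for Psmb9 and chr11:70525207-70525356 (+) for Psmb6.
Psmb8: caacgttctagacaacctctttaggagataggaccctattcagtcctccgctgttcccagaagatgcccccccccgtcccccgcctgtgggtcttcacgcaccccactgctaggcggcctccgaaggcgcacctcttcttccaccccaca
Psmb5: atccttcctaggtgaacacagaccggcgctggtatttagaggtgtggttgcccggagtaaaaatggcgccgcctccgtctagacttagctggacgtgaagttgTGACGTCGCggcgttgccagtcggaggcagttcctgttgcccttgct
Psmb9: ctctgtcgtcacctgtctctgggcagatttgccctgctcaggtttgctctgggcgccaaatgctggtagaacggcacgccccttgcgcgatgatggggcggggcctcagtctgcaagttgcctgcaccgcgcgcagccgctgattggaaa
Psmb6: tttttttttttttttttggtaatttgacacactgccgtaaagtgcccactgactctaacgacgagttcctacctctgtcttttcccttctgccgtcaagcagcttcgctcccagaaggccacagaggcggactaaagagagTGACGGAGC
The Psmb5 window held TGACNNNGC from base -47 to -39 before the start. The Psmb6 window held it from -9 to -1 before the start used, which is inside the annotated gene and not upstream of it. This motif was found in 6.8% of all 32851 RefSeq windows of this length, and of the 36 members with a window Psmd9 had it as well. GAAANNGAA, in 3.95% of all windows, was found for Psmd4 and no other member, and the Psmb8 and Psmb9 windows held neither motif. A match describes letters and is not a measured binding site.

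The genomic neighbourhood differs between these genes as well. Psmb9 (chr17:34182030-34187330) and Psmb8 (chr17:34198195-34201454) enclose Tap1 (chr17:34187556-34197225) in the histocompatibility complex, and Tap2 (chr17:34204479-34216321) follows. Tap1 and Tap2 form the transporter that carries proteasome-made peptides into the endoplasmic reticulum. Tap1 had 254 reads in organoid WT and 215 in organoid F4KO, and 5179 and 4648 in the Epi libraries, where it was higher in F4KO (log2 fold change 0.15, FDR 3.52e-06). Tap2 had 104 and 97 reads in the organoids and 2203 and 1617 in Epi, where its log2 fold change was -0.15 (FDR 0.0042, not passed). Psme1 (chr14:55578494-55581527) and Psme2 (chr14:55587440-55591101) are close neighbours, and their ratios lay within each other's intervals in both comparisons.

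The ATPases of the 19S base unfold substrates and thread them into the barrel. All 6 were higher in the Epi F4KO library, from 0.20 for Psmc3 (1612 and 1507 reads) to 0.39 for Psmc5 (1396 and 1485 reads). In the organoids 5 of 6 did not pass, with Psmc4 the highest at 0.10 (1392 and 1484 reads). Psmc6 was the exception and had the lowest organoid value of any member that passed, with 2286 reads in WT and 1781 in F4KO (ratio 0.785, 0.738 to 0.836, FDR 9.55e-13). In the Epi libraries Psmc6 had 1058 and 1022 reads, a ratio of 1.19 (1.09 to 1.30) in the other direction.

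Of the 11 non-ATPase genes of the base and lid, which recognise ubiquitin chains, remove them and hold the cap together, 8 were higher in Epi F4KO and 1 was higher in organoid F4KO. That gene, Psmd3, a lid scaffold, had 2147 and 2459 reads in the organoids (ratio 1.15, 1.09 to 1.22) and 1960 and 2143 in Epi (1.35, 1.26 to 1.43), the highest of its class in both. The large scaffolds of the base moved alike in Epi, Psmd1 with 1454 and 1590 reads (1.35) and Psmd2 with 1879 and 2040 (1.34). Psmd14, the lid deubiquitinase, had the lowest organoid value of the class at -0.13 (1541 and 1399 reads, FDR 0.0802) and was higher in Epi F4KO (854 and 865 reads, 1.25). The 3 that did not pass in Epi were the ubiquitin receptor Psmd4 (1494 and 1294 reads, 1.07), Psmd8 (2196 and 1983, 1.11, FDR 0.0017) and Psmd11.

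Psmd11, a lid subunit that promotes cap assembly, had the lowest Epi value of its class, and its listed transcripts moved apart. In the authors' deposited table the transcript NM_178616.3 was lower in Epi F4KO (log2 fold change -0.47, FDR 9.53e-07) and XM_011249223.3 was higher (0.57, FDR 1.16e-13), and the gene as a whole had 0.02. It was the only one of the 17 members with several measured transcripts whose transcripts were called in opposite directions in Epi. In the organoids 16 members had several measured transcripts, and those of Psma3, Psmd4 and Psme3 were called in opposite directions. The share of all genes with opposite transcript calls was not counted for either comparison. For Psma3, the organoid values were as large as -5.58 for NM_001310595.1 and 6.54 for NM_011184.5, and reads of single transcripts are not given here. For Psmd4, the values there were -0.29 for NM_001282017.1 and 0.27 for NM_008951.2. In Epi these 2 Psmd4 transcripts had 0.30 and -0.15, while XM_006501137.3 had 6.99 and XM_030252465.1 had 7.51. The sources used here do not say how reads were divided among transcripts.

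The base chaperones Psmd5, Psmd9 and Psmd10, which help the ATPase ring to assemble and leave before the particle is finished, passed in neither comparison at the gene level. Psmd10 was the lowest of them in Epi with 289 and 239 reads (log2 fold change 0.02), and Psmd5 the highest with 268 and 285 reads (0.41, FDR 0.0037). The listed Psmd5 transcripts moved apart in Epi, with 7.54 for NM_001355544.1, 7.08 for XM_030251975.1 and -0.18 for NM_080554.2. At such numbers an interval of the ratio spans 0.854 to 1.21 for Psmd10. In the organoids their log2 fold changes ran from -0.08 for Psmd5 to -0.04 for Psmd9.

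The other activators differed from each other. Psme3, which encodes PA28 gamma, the nuclear relative of Psme1 and Psme2, was higher in both comparisons, with 2957 and 3325 reads in organoid WT and F4KO (ratio 1.13, 1.08 to 1.19) and 1745 and 1880 in Epi (1.33, 1.24 to 1.42). Psme4, which encodes the PA200 activator, did not pass in either, at -0.05 in the organoids and 0.06 in Epi. Psma8, the alpha subunit of testis, had 1 read in organoid WT and 0 in organoid F4KO and no Epi value, and Psmb11, the beta subunit of thymic epithelium, had 7 and 0 in the organoids and 11 and 9 in Epi. The upper bound of the organoid Psmb11 ratio was 0.699, from 7 reads in all.

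At the gene level, the symbols that share only the prefix passed in neither comparison. Psmc3ip, a meiotic recombination factor, had 87 and 97 reads in the organoids and 8 and 12 in Epi. Psme2b, a copy of Psme2, had 4 and 1 reads in the organoids and 10 and 12 in Epi, so that few reads were assigned to it beside its parent gene. Psme3ip1, which encodes a protein that binds PA28 gamma, had log2 fold changes of -0.01 in the organoids and 0.27 in Epi. Its listed transcripts moved apart behind these values. NM_001363456.1 had 2.48 in the organoids and 1.66 in Epi, and NM_028221.4 had -0.77 and -0.09.

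Genes that assemble or serve the proteasome but lie outside the symbol rule were examined as lists. The list sizes count symbols. Some symbols are older names of genes already covered, so a symbol without a value need not be an unmeasured gene. Of 8 symbols for assembly chaperones and factors, 6 had a fold change, and 5 were higher in Epi F4KO and 0 in organoid F4KO, with medians of 1.10 and 0.02. Over all genes 30.6% were higher in Epi F4KO and 3.09% in organoid F4KO. Psmg1 to Psmg4 build the alpha ring. Psmg1 had 78 and 168 reads in Epi WT and F4KO (log2 fold change 1.41, FDR 8.59e-13) and Psmg4 had 24 and 61 (1.74, FDR 2.11e-06), the highest values of all these lists. In the organoids Psmg1 had 790 and 805 reads and Psmg4 296 and 291. Pomp, which matures the core particle, had 2345 and 1968 reads in Epi (0.05) and did not pass there. The upper quartile of all Epi genes was 0.99, and as measured above the shift of the Epi comparison was larger for genes with low levels.

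The counts of the next 4 lists stand beside 30.6% higher and 7.92% lower over all genes in Epi, and 42.3% and 23.1% among well expressed genes. In the organoids the shares over all genes were 3.09% and 4.7%, and counts of 0 in lists this small lie near them. Of 9 symbols for further subunits and regulators 8 had a fold change, 3 were higher in Epi and 0 passed in the organoids, with medians of 0.19 and -0.06. Of 10 ubiquitin receptors and delivery factors, 7 were higher and 2 lower in Epi (median 0.31) and 0 passed in the organoids (median -0.01). Of 8 transcription-related genes 1 was higher and 2 were lower in Epi (median -0.08), with 0 called in the organoids (median 0.05). Nfe2l1, which drives subunit genes when proteasome activity falls, was the gene that was higher, at 0.29, and Nfe2l2 had 4331 and 3085 reads (-0.19) and was lower. Of 4 ubiquitin genes 3 were higher and 1 lower in Epi (median 0.16), against 0 and 1 in the organoids (median 0.02). Rps27a, a fusion of ubiquitin and a ribosomal protein, was the organoid gene that was lower, with 12796 and 11807 reads (-0.06), and it was higher in Epi, with 1322 and 2540 (1.24).

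The list of 32 symbols for class I and interferon-gamma response genes held genes called in both directions in Epi. Of 30 with a fold change, 11 were higher and 8 lower, with a median of 0.04. Over all genes 30.6% were higher and 7.92% lower in Epi, and among well expressed genes 42.3% and 23.1%. The list was not limited to well expressed genes, so neither pair of shares is an exact background for it. Gbp2, an interferon-induced GTPase, had 612 reads in Epi WT and 154 in Epi F4KO (log2 fold change -1.69), and Ido1, an interferon-induced enzyme of tryptophan breakdown, had 1813 and 471 (-1.65). Both were lower. Chosen after its values were seen, Socs1, a feedback inhibitor of this pathway, had 277 and 561 (1.32) and was higher, and Nlrc5, the activator of class I and immunoproteasome genes, had 533 and 493 (0.20, not passed). In the organoids 1 of 29 was higher and 3 were lower (median -0.09), beside 3.09% higher and 4.7% lower over all genes. Irf9, a transcription factor of the interferon response, had 304 and 173 reads (-0.78), B2m, the class I light chain, had 11167 and 9034 (-0.29), and H2-K1 was the gene that was higher, by 0.11. Nlrc5 had 4 and 2 reads there.

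**Figure D4:**
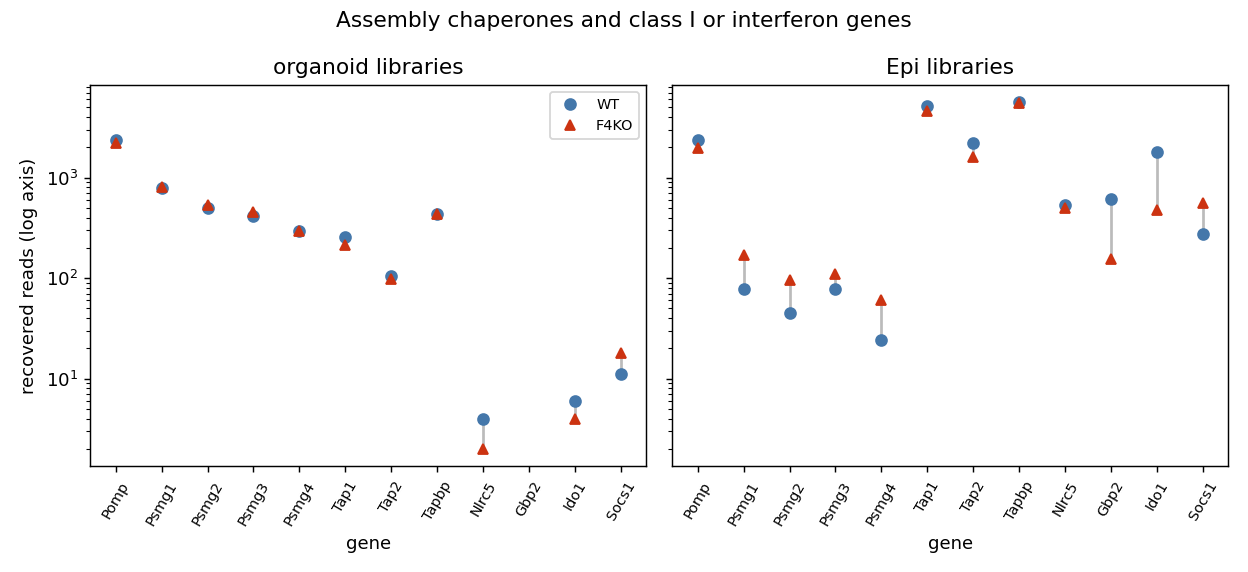
Recovered reads (log axis) of assembly chaperones (Pomp, Psmg1 to Psmg4) and of class I or interferon genes in WT (circles) and F4KO (triangles), unscaled, in the organoid (left) and Epi (right) libraries; Gbp2 had no organoid value. The Psmg genes are higher in Epi F4KO, as Psmg1 with 78 and 168 reads, while Gbp2 and Ido1 are lower.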

How the data were processed

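RNA libraries were prepared with a SMARTER kit from 1.5 µg of total RNA, per the labels' protocols; the submitters' processing notes name the builds GRCm38 and mm10. Names of the aligner and quantifier were not given in the sources used here. For each gene and transcript the authors deposited a log2 fold change, a p-value of a Poisson-type test of 1 library against 1, and an FDR, which in the organoid comparison exceeds 1 for some genes and was handled as a score. The members and lists were chosen with earlier results of these data known.

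Levels per library were expected and not found, so deposited values were used and no test of genotype was made. Read numbers were recovered as the whole pair whose two-sided Audic-Claverie p-value equals the deposited one to 6 digits. A pair was kept where it met both the gene's and its transcripts' p-values, where it alone met the p-value within a log2 difference of 0.05 (not asked below 400 reads), or where it alone had the deposited ratio. With p-values shifted by 0.03%, which leaves false matches only, 2 of 84 Epi and 4 of 86 organoid trials gave a pair. On simulated pairs the right pair was found for 129 of 129 in Epi and 104 of 105 in the organoids. Each simulated gene had a single transcript and little noise in its ratio. That setting is easier than the data, so these counts do not give the error rate here. Over members with at least 20 reads the recovered and deposited log2 ratios differed by at most 0.0376 in the organoids and 0.0901 in Epi. Intervals are exact Clopper-Pearson and cover counting error only.

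Named genes were the 5 inducible genes with their counterparts, the lowest and highest of each class, members past an FDR of 0.001 and a size of 0.5, and the 2 lowest and 2 highest called genes over the related lists. Others were chosen after their values were seen. Some genes of the lists are not reported here. Positions come from RefSeq on GRCm38.p6, matched on gene ID, and lengths from GENCODE transcripts paired with the listed RefSeq ones. Symbol matching used Python 3 libraries (pandas, SciPy, statsmodels).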

Additional observations from a re-analysis of the deposited data

Results flagged for a closer look

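Genes were listed here where the organoid and the Epi comparison were called in opposite directions at a deposited FDR of 0.001 or less; the difference between the comparisons was not tested, since each rests on 1 library per genotype. Psma1, an alpha subunit, had a log2 fold change of -0.24 in the organoids and 0.23 in Epi. Psma2 had -0.17 and 0.36. Psma6 had -0.19 and 0.32. Psmc6, an ATPase of the base, had -0.35 and 0.25. No member was lower in Epi and higher in the organoids at that limit, since 0 members were lower in Epi. The share of all genes called in opposite directions was not counted, so whether these members are unusual cannot be told.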

How the results depend on the processing

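No paired analysis was possible because each genotype had 1 library in each comparison. A median counted as moved when it changed by 0.1 or more on the log2 scale, since no replicate spread exists. Against the median of all genes the Epi median of the members turned from 0.31 to -0.0702 and that of the 5 inducible genes from 0.18 to -0.20; against well expressed genes, an alternative chosen after seeing the data, they were 0.173 and 0.0456. The mean over the organoid members was -0.17, and it includes Psmb11 at -3.46 and Psma8 at -2, each with under 20 reads. Over the 5 inducible genes the organoid mean was -0.17, with Psmb9 the lowest at -0.65. With a size of at least 0.5 the counts were 0 higher and 0 lower in the organoids and 1 higher in Epi, and with a size of at least 1 they were 0 in each. With an FDR of 0.05 the organoid count of lower members was 8. The table of transcripts gave 4 higher and 7 lower in the organoids and 1 lower in Epi. In the other settings tried medians moved by less than 0.1 and counts stayed within 1.5 times. The difference between inducible and other members stayed at -0.14 to -0.17 in Epi and within -0.04 to 0.02 in the organoids. Depth limits Psmb8, Psmb9, Psmb11 and Psma8 in the organoids most.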
